A study of Bos taurus with 30 samples.

Results

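ATAC-seq compared bovine 4-cell embryos grown in the presence of α-amanitin with untreated embryos of the same stage. The comparison took every 4-cell sample of the series, 3 labelled as transcription inhibited and 3 as control, which made 6 of the 30 samples. α-Amanitin binds RNA polymerase II and stops it from elongating transcripts. The treated embryos are called transcription blocked embryos (TBE) here. In cattle the major activation of the embryonic genome comes at the 8-cell stage, so that a 4-cell embryo still lives largely on RNA and protein stored in the oocyte. A TBE at this stage shows which chromatin is accessible after transcription in the embryo has been inhibited from day 1. In ATAC-seq a transposase inserts adapters where DNA is accessible, and a peak marks a place where the inserted tags exceed the background of that library.

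All embryos were produced in vitro from matured oocytes and the frozen semen of a Holstein bull, and were collected 2 days post-insemination. The TBE received α-amanitin at 50 µg/ml on day 1 and differed from the control embryos in nothing else that the labels name, since both arms came from the same collections and were cultured side by side. Each library was made from a pool of embryos of at least 500 cells without their zona pellucida, so that its peaks are averages over embryos and blastomeres. Whether the pools of the 2 arms held equal numbers of cells was not tested, and fewer nuclei, fewer reads and less open chromatin cannot be told apart from a shorter list alone. The deposited lists were called per replicate on the build ARS-UCD1.2. An annotation and a sequence of that build were not used here, so that regions are given by their position only, and genes, promoters and motifs were not analysed.

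The TBE lists were shorter than the control lists in each replicate number, but 1 TBE library stood apart from the other 2. The labels do not say that equal replicate numbers share a collection, so that comparisons by number here and below are descriptive only. The control lists held 42012, 22983 and 14355 peaks in replicates 1, 2 and 3, and the TBE lists 32260, 4166 and 3094 peaks. TBE replicate 1 thus exceeded 2 of the 3 control libraries, while TBE replicates 2 and 3 were below all of them. Peaks covered 21.2, 10.5 and 5.56 Mb in control and 13.9, 1.46 and 1.10 Mb in TBE. The geometric mean number of peaks in TBE was 0.311 times that of control (exact permutation test of log2 values, two-sided, p = 0.3), and the covered length 0.262 times (exact permutation test, p = 0.3). With 3 libraries against 3 this exact test cannot go below p = 0.1. Without TBE replicate 1 the ratios were 0.149 and 0.118, and without TBE replicate 3 they were 0.483 and 0.42.

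The libraries also differed in depth. The number of reads behind a list is unknown, but a background level in tags per position, which is proportional to it, could be solved from peaks whose pileup of tags is a whole number. This level was 0.495, 0.454 and 0.223 in control and 0.325, 0.134 and 0.157 in TBE, so that TBE replicates 2 and 3 were the shallowest of the 6 libraries. The levels were solved from 759, 473 and 327 peaks in control and from 1668, 10 and 27 peaks in TBE. Those of TBE replicates 2 and 3 thus rest on the fewest peaks, as does every value below that uses them. The level of TBE was 0.515 times that of control by geometric means (exact permutation test, two-sided, p = 0.2). The order of the lists was not that of these levels. TBE replicate 1 had a lower level than control replicate 2 and yet 32260 against 22983 peaks. Per unit of background level, TBE replicate 1 and control replicate 1 covered the same length, 42.8 Mb in each. TBE replicates 2 and 3 covered 10.9 and 6.99 Mb per unit, against 23.2 and 24.9 Mb in control replicates 2 and 3. By geometric means the TBE value was 0.509 times that of control (exact permutation test of log2 values, two-sided, p = 0.4). Whether covered length is proportional to the level was not tested, so that this division need not remove depth. The part of depth in the differences below was not tested beyond the lists that were cut to equal numbers or scaled to equal level.

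**Figure D1:**
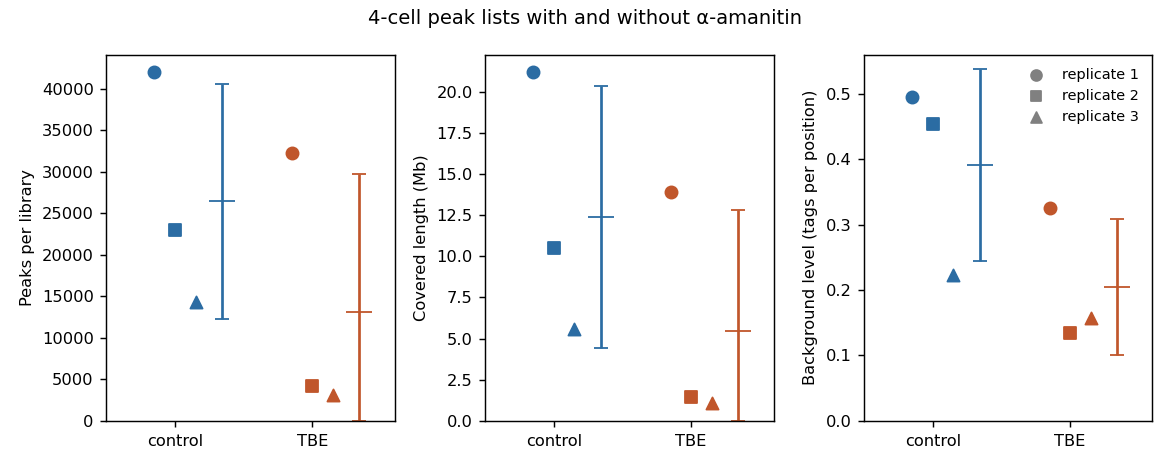
Number of peaks, covered length in Mb and background level in tags per position of each 4-cell library, with control in blue and TBE in orange and a symbol for each replicate number. Horizontal marks and bars are mean and SD of 3 libraries, with bars cut at 0. TBE replicate 1 lies within the range of the control libraries in all 3 panels, and TBE replicates 2 and 3 lie below every control library.

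Over whole lists the height of peaks overlapped between the arms, and cutting the lists to equal numbers did not make them equal in strength. The median fold enrichment over all peaks of a list was 3.93, 3.80 and 3.81 in control and 3.66, 4.17 and 3.99 in TBE, which overlapped (exact permutation test, two-sided, p = 0.6). These lists differ in length and end at different strengths. Over the 3094 strongest peaks of each list by −log10 p, the medians were 6.97, 5.44 and 5.04 in control and 5.77, 4.47 and 3.99 in TBE. The number 3094 is the whole list of TBE replicate 3. The cut lists ended at a −log10 p of 10.8, 6.78 and 5.94 in control and of 7.22, 4.75 and 3.93 in TBE. The cut reaches further down a shorter list, so that these lower medians do not compare peak height between the arms. Median peak width over whole lists was 377, 338 and 262 bp in control and 294, 241 and 229 bp in TBE, lower in TBE in each replicate number but with overlap of the groups (exact permutation test, two-sided, p = 0.2). Strong peaks, with fold enrichments from 6 upward, numbered 3535, 816 and 426 in control and 1217, 259 and 159 in TBE. As shares of their lists these were 8.41%, 3.55% and 2.97% in control and 3.77%, 6.22% and 5.14% in TBE. The share was thus lower in TBE in replicate number 1 and higher in replicate numbers 2 and 3. The ratio of the counts, TBE to control, was 0.344, 0.317 and 0.373 in replicate numbers 1, 2 and 3. The groups overlapped because TBE replicate 1 had more strong peaks than control replicates 2 and 3 (exact permutation test of log2 values, two-sided, p = 0.3). Fold enrichment itself depends on depth, as given below for shared regions, so that a fixed limit of 6 is not equal between libraries.

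Merging the 6 lists gave 75327 regions. Regions shared by TBE libraries mostly had a peak in control as well, whereas many peaks of single TBE libraries did not. Of 985 regions with a peak in all 3 TBE libraries, 985 had a peak in at least 1 control library and 866 in all 3. Among 4027 regions with a peak in at least 2 TBE libraries, 97.1% had a peak in a control library. A further 16887 regions (22.4% of the union) had a peak in 1 TBE library and in no control library, 15352 of them in TBE replicate 1. The reverse, a peak in 1 control library and in no TBE library, was found at 36560 regions (48.5%). Of the peaks of TBE replicates 1, 2 and 3, 52.1%, 81.7% and 70.7% overlapped a peak of a control library, and 70.9%, 58.4% and 43.1% with equal numbers of top peaks in each list. In the other direction, 71.5% of the 15176 regions of at least 2 control libraries had a peak in a TBE library. A peak in all 3 control and no TBE libraries was found at 520 regions, 0.690% of the union, and a peak in all 3 TBE and no control libraries at 0 regions, 0% of the union. These are counts without a test, and the lists that they rest on differ in length. With the 3094 strongest peaks of each list by −log10 p, the same counts were 55 and 21. Without TBE replicate 1 they were 3097 and 2, and without control replicates 1, 2 and 3 in turn they were 808 and 10, 1575 and 1, and 2956 and 1. Without TBE replicates 2 and 3 in turn they were 579 and 53, and 555 and 60.

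**Figure D2:**
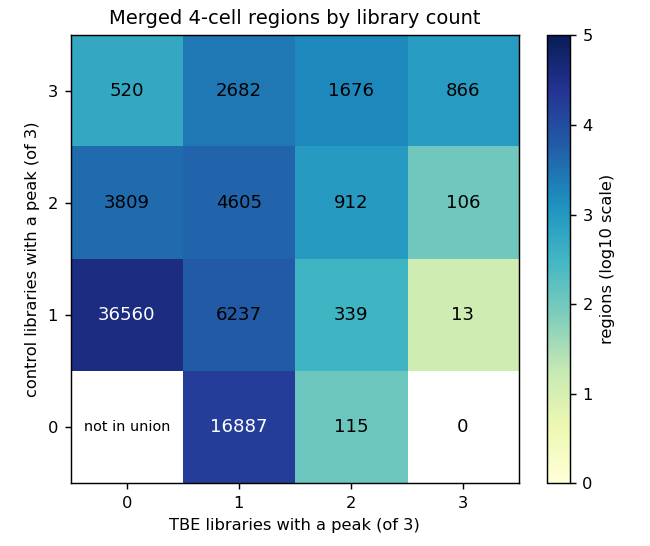
Number of merged 4-cell regions by how many of the 3 control libraries (vertical) and of the 3 TBE libraries (horizontal) have a peak there, with colour on a log10 scale. The largest class, 36560 regions, has a peak in 1 control library only, and the corner with 3 TBE and 0 control libraries holds 0 regions against 520 in the opposite corner.

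Among regions open in all 3 control libraries, those with peaks in more TBE libraries had a higher control fold enrichment. Of the 5744 such regions, 520 (9.05%) had no TBE peak, 2682 (46.7%) a peak in 1 TBE library, 1676 (29.2%) in 2 and 866 (15.1%) in 3. TBE replicate 1 had a peak at 89.2% of the 5744 regions, replicate 2 at 36.5% and replicate 3 at 24.6%, and the single TBE library was replicate 1 in 2589 of the 2682 regions. The median over regions of the mean control fold enrichment rose along these classes from 4.05 to 4.52, 5.05 and 5.78. Of the 520 regions without a TBE peak, 1 had a mean control fold enrichment of at least 6, against 374 of the 866 regions (43.2%) with a peak in all 6 libraries. The classes and the number of TBE libraries share the same depth differences, and no test was made of them.

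The 5 regions of this class with the largest control fold enrichment were on 5 chromosomes. At chr18:46378258-46378621 control embryos had fold enrichments of 7.91, 7.71 and 4.68 and no TBE library had a peak. This region was the only one of the 520 above 6 on average, and it had a peak in 25 of the 30 libraries of the series, among them all 3 of 2-cell TBE and all 3 of 8-cell TBE. At chr4:114741535-114741816 the control values were 7.44, 4.49 and 5.99. This region differed from the others in the oocyte, with a peak in 0 of 3 GV oocyte libraries. Like the others, it had a peak in all 3 libraries of 8-cell control, 8-cell TBE, morula and ICM. At chr2:96751319-96751646 the control values were 7.49, 5.46 and 4.57, at chr7:86288525-86289089 they were 7.56, 5.63 and 3.88, and at chr3:23072564-23072848 they were 6.85, 4.49 and 5.60. All 5 regions had peaks in the 3 libraries of 8-cell TBE, so that their chromatin was accessible a stage later under the same inhibitor.

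How many regions a library lacks was measured against control libraries that had no part in defining the regions. Each control library was held out in turn, and regions were those with peaks in the other 2, which gave 6084, 8043 and 12279 regions. Held-out control libraries lacked 7.73%, 29.2% and 53.5% of them, and TBE libraries 20.9%, 71.6% and 81.3%. Each held-out library was measured on its own set only, and each library of the other arm by its mean over the 3 sets. This holds for all shares of regions lacking below. The means were 30.1% ± 22.9 and 57.9% ± 32.5 (SD, n = 3), a difference of 27.8 percentage points (exact permutation test, two-sided, p = 0.3). TBE lacked more than the held-out control of the same number in all 3 replicate numbers, by 13.2, 42.4 and 27.8 points. The 2 values of a number do not rest on the same regions, and the order of the 6 libraries was exactly that of their numbers of peaks. The difference was 46.3 points without TBE replicate 1 and 16.1 points without TBE replicate 3, 8.21 points with equal numbers of top peaks, and 0.725 points with peaks scaled to the lowest background level. The same measure taken the other way gave the mirror image. Of regions shared by 2 TBE libraries, held-out TBE libraries lacked 1.74%, 49.4% and 67.5%, and control libraries only 2.82%, 9.63% and 21.3% (difference of means −28.3 points, exact permutation test, two-sided, p = 0.4).

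Every library lacked weak regions more often than strong ones. Regions with a mean fold enrichment of at least 6 in the defining control libraries were lacking in 0%, 3.04% and 15.6% of cases in held-out control and in 1.43%, 29.6% and 46.2% in TBE. For regions below 3.5 the shares were 23.0%, 63.1% and 82.5% in held-out control and 51.4%, 89.6% and 90.5% in TBE. TBE replicate 1 lay between control replicates 1 and 2 in every class of strength, and TBE replicates 2 and 3 lay above all control libraries in every class. Below 3.5 the shares of TBE replicates 2 and 3 were near the upper limit of a share, which bounds their gap between weak and strong regions. The gap between weak and strong regions was 50.0 ± 23.6 points in held-out control and 51.4 ± 7.98 points in TBE (SD, n = 3; exact permutation test, two-sided, p = 1).

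**Figure D3:**
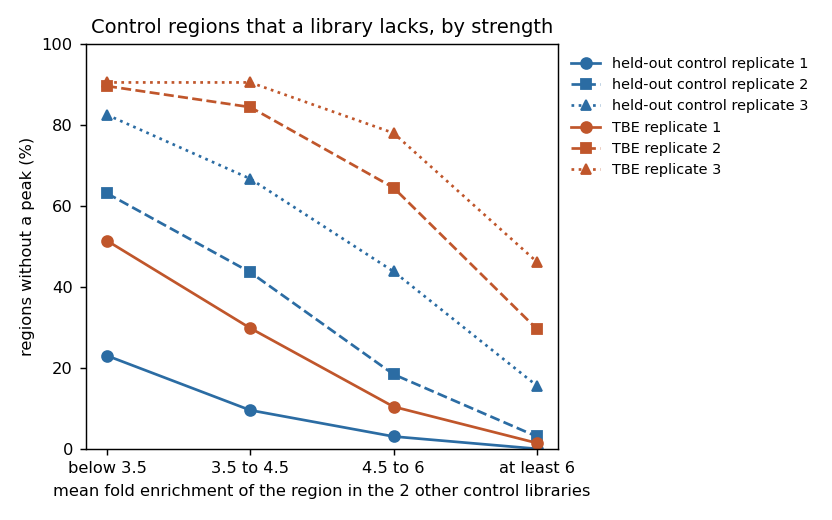
Percent of control regions without a peak in each library (vertical) against the mean fold enrichment of the regions in the 2 control libraries that define them (horizontal, 4 classes). Blue lines are held-out control libraries and orange lines TBE libraries, with a line style for each replicate number. All 6 lines are lower at the right end than at the left end, and TBE replicate 1 runs between control replicates 1 and 2.

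Regions that were also open in the oocyte or in 8-cell embryos had a peak more often than other regions, in TBE as in control embryos. GV oocytes are the immature oocytes from which the embryos derive, and their regions were peaks shared by at least 2 of 3 GV libraries. Control regions that overlapped a GV region were lacking in 2.29%, 22.4% and 46.5% of cases in held-out control and in 14.1%, 67.6% and 78.6% in TBE. Control regions outside GV regions were lacking in 43.9%, 65.4% and 81.5% in held-out control and in 56.0%, 93.0% and 95.5% in TBE. The difference between these classes was 39.9 ± 4.30 points in held-out control and 28.0 ± 12.7 points in TBE (SD, n = 3; exact permutation test, two-sided, p = 0.3). Regions of the oocyte were stronger on the whole, with a median fold enrichment of 4.60 against 3.95. Within classes of fold enrichment, regions outside GV regions were lacking more often by 32.9 ± 17.5 points in held-out control and 19.6 ± 12.5 points in TBE below 3.5, by 33.9 ± 10.2 and 19.4 ± 15.6 points from 3.5 to 4.5, and by 27.1 ± 3.5 and 22.8 ± 6.65 points from 4.5 to 6 (SD, n = 3). For regions of at least 6 the differences were 0, 10.8 and 21.3 points in held-out control and 14, 13.6 and 13.7 points in TBE, with only 6, 22 and 33 such regions outside GV regions. Overlap with regions of 8-cell control embryos separated the regions as much. Not being an 8-cell region added 44.0 ± 7.94 points in held-out control and 26.8 ± 15 points in TBE (SD, n = 3; exact permutation test, two-sided, p = 0.2). Regions of the oocyte outside 8-cell regions were lacking in 51.5% of cases on average in held-out control and 72.0% in TBE, and 8-cell regions outside oocyte regions in 52.7% and 77.4%. Without regard to strength, all 6 libraries lacked regions outside GV regions more often, and no difference between the arms was detectable with 3 libraries each. TBE replicates 2 and 3 lacked 93.0% and 95.5% outside GV regions and 90.0% and 95.9% outside 8-cell regions. These shares are near the upper limit of a share, which bounds the TBE differences, so that a comparison of differences between the arms cannot decide.

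The same gradient appeared over the classes of regions open in all 3 control libraries. GV regions overlapped 72.7% of the 520 regions without a TBE peak, 91.1% and 96.2% of those with 1 and 2 TBE libraries, and 98.6% of the 866 regions with all 6. Regions of 2-cell TBE overlapped 4.23%, 25.1%, 49.9% and 84.2% of the same classes. Regions of 2-cell control embryos overlapped 1.15%, 2.50%, 9.19% and 40.6%. The more TBE libraries had a peak at a region, the more often it also had peaks a cell cycle earlier, in embryos with and without the inhibitor. These classes also differed in strength, with median control fold enrichments of 4.05, 4.52, 5.05 and 5.78. Later, 8-cell control regions overlapped 85.4% and 8-cell TBE regions 95.8% of the 520 regions. Over all 75327 merged regions the shares were 29.6% for GV, 4.23% for 2-cell TBE and 0.895% for 2-cell control regions. For 8-cell control and 8-cell TBE regions they were 40.6% and 53.1%. The 8-cell TBE library nearest in background level to 4-cell TBE replicate 1, at 0.348 against 0.325, had the longer list, with 50090 against 32260 peaks. It had peaks at 432 (83.1%) of the 520 regions and at 851 (98.3%) of the 866 regions with all 6. Because the 520 regions were chosen for lacking a peak in every 4-cell TBE library, these shares do not compare the 2 stages, and the part of depth was not tested.

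Regions that had peaks only in control embryos at the 8-cell stage had few peaks at the 4-cell stage in either arm. These regions were defined in 8-cell libraries alone, so that the 4-cell values were independent of their choice. At the 8-cell stage 38874 regions had a peak in all 3 control and no TBE libraries, 20209 in all 6 libraries and 6425 in all 3 TBE and no control libraries. Of the 38874 regions, 4-cell control libraries had a peak at 1.48%, 0.566% and 0.314%, and 4-cell TBE libraries at 1.14%, 0.0257% and 0.0566%. Of the 20209 regions open in both arms at the 8-cell stage, the shares were 77.3%, 50.7% and 33.5% in 4-cell control and 59.8%, 14.2% and 9.21% in 4-cell TBE. Of the 6425 regions open only in 8-cell TBE, they were 22.8%, 12.5% and 6.89% in 4-cell control and 17%, 1.07% and 1.17% in 4-cell TBE.

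Each of the 6 libraries of the 4-cell stage ordered these classes in the same way. Regions found only in 8-cell TBE had a 4-cell peak 15.4, 22.0 and 22.0 times as often as regions found only in 8-cell control embryos in the control libraries, and 15, 41.7 and 20.6 times as often in the TBE libraries. In TBE replicates 2 and 3 these ratios rest on 10 and 22 of the 38874 regions. With equal numbers of top peaks only 3, 8 and 13 of the 38874 regions had a peak in the control libraries and 6, 8 and 22 in the TBE libraries, too few to compare ratios. Some of the regions found only in TBE at the 8-cell stage thus already had peaks in untreated 4-cell embryos. The ratio did not differ between 4-cell TBE and control beyond the spread of the libraries (exact permutation test of log2 values, two-sided, p = 0.9). The share of the 38874 regions relative to that of the 20209 regions was 0.0132 ± 0.00519 in control and 0.00899 ± 0.00895 in TBE (SD, n = 3; exact permutation test, two-sided, p = 0.4). By geometric means this relative share in TBE was 0.472 times that of control, 0.264 times without TBE replicate 1 and, on the 3 to 22 regions per library named above, 1.72 times with equal numbers of top peaks.

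**Figure D4:**
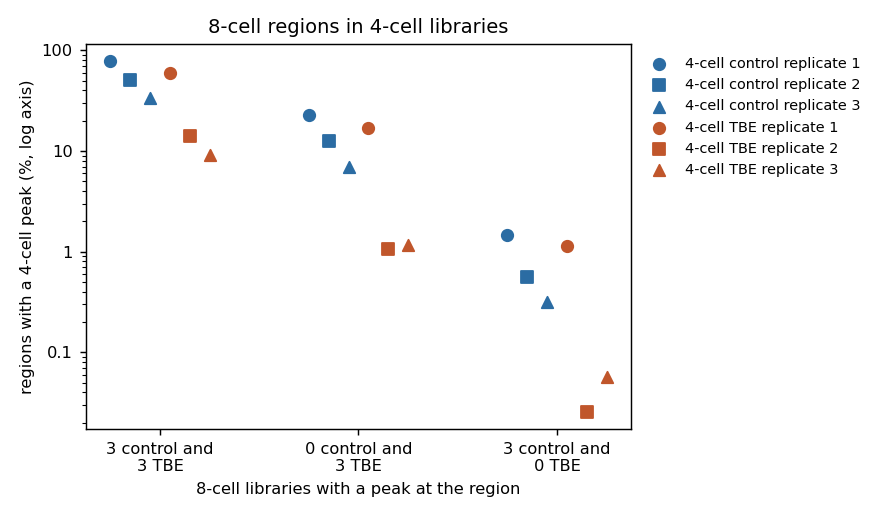
Percent of 8-cell regions with a peak in each 4-cell library (vertical, log axis) for regions with peaks in all 3 control and 3 TBE, in 0 control and 3 TBE, and in 3 control and 0 TBE libraries of the 8-cell stage. Blue points are 4-cell control and orange points 4-cell TBE libraries. Every library falls from the first class to the third, where no library exceeds 1.48%.

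At regions open in every library, the deposited fold enrichment was slightly lower in TBE, and this direction depended on how depth enters the value. The median over the 866 shared regions was 6.71, 5.54 and 5.03 in control and 5.77, 4.87 and 4.61 in TBE, with TBE lower by 0.22, 0.18 and 0.13 on the log2 scale in replicate numbers 1, 2 and 3. TBE minus control was −0.18 on the log2 scale (exact permutation test, two-sided, p = 0.4). The groups overlapped, since TBE replicate 1 was above control replicates 2 and 3. MACS2 adds a pseudocount of 1 tag to pileup and background before it divides them, and this lowers the ratio most in shallow libraries. With the pseudocount taken out and the background level of the library as divisor, the medians were 18.2, 15.5 and 23.1 in control and 20.4, 33.8 and 27.6 in TBE. TBE was then higher by 0.51 on the log2 scale (exact permutation test, two-sided, p = 0.2), and by 0.71 without TBE replicate 1. The 866 regions were chosen by a peak in all 6 libraries, and a call in a shallow library needs more tags relative to its background. The choice of regions can thus raise this value in TBE replicates 2 and 3, and its part was not tested. The pileup in tags, computed back from fold enrichment and the background level of the library, was 9.03, 7.05 and 5.15 in control and 6.64, 4.52 and 4.34 in TBE. Neither a loss nor a gain of accessibility at shared regions can be read from these values. Fold enrichment and enrichment without the pseudocount point in opposite directions, and both depend on depth.

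**Figure D5:**
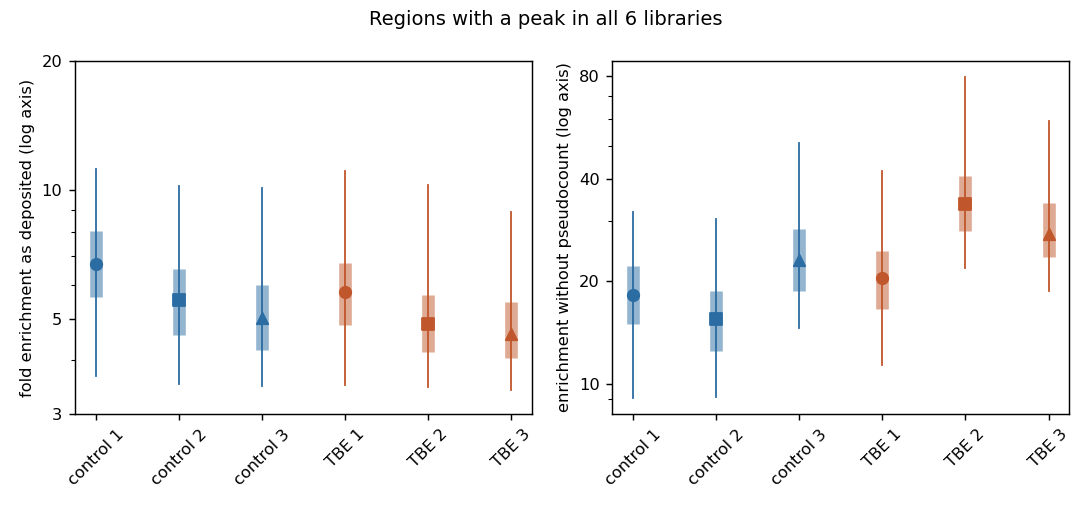
Values at the 866 regions with a peak in all 6 libraries, as deposited (left) and with the pseudocount taken out (right), both on log axes. Symbols are medians, thick bars the 25th to 75th and thin bars the 5th to 95th percentile over regions. On the left TBE replicates 2 and 3 have the lowest medians, 4.87 and 4.61, and on the right the highest, 33.8 and 27.6.

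Region by region, the unpaired comparison of all 6 libraries called no difference in fold enrichment. After each library was centred on its median, limma called 0 of 866 regions higher and 0 lower in TBE at an adjusted p below 0.05 (0% of those tested in each direction), with 32 higher and 17 lower at an unadjusted p below 0.05. The lowest adjusted p was 0.387. Without TBE replicate 1, 2 regions were called, and without replicate 3 of both arms, 3 regions, all higher in TBE. The 3 strongest shared regions were much alike in both arms and had peaks in all 30 libraries of the series. At chr9:20771813-20772097 control fold enrichments were 18.5, 15.7 and 19 and TBE 20.0, 19.4 and 17. At chr17:5546502-5546993 they were 17.1, 17.2 and 17.6 in control and 18.2, 18.3 and 18.7 in TBE, and at chr2:40600373-40600740 they were 17.3, 15.1 and 16.6 in control and 16.8, 19 and 18.5 in TBE. In these 3 regions limma gave log2 differences of 0.26, 0.26 and 0.32 with standard errors of 0.16 (adjusted p of 0.803, 0.803 and 0.801). Of all 866 regions, 111 (12.8%) had a peak in every library of the series, and the median region had a peak in 27.

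The region with the lowest limma p-value was chr4:29487037-29487592, which was singled out after its values were seen. Its fold enrichment was 7.87, 5.18 and 6.83 in control and 3.82, 3.78 and 3.29 in TBE, so that the groups did not overlap. TBE minus control was −0.67 on the log2 scale after centring (SE 0.18, limma adjusted p = 0.387). The lowest p-value among regions higher in TBE, chosen in the same way, was at chr3:106185038-106186017, with 3.55, 3.81 and 3.66 in control and 4.26, 5.77 and 5.11 in TBE (log2 difference 0.62, SE 0.19, limma adjusted p = 0.39). Both miss the threshold by far over 866 regions.

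Similarity between lists was not shown to follow the treatment. The Jaccard index, the shared length of 2 lists over their joint length, was 0.181, 0.117 and 0.142 for the 3 pairs of control libraries and 0.0655, 0.0439 and 0.143 for the 3 pairs of TBE libraries. The highest value of all 15 pairs, 0.197, joined control replicate 1 and TBE replicate 1. The mean within groups was 0.115 and between groups 0.100 (exact permutation test, two-sided, p = 0.7). With equal numbers of top peaks the means were 0.225 and 0.227, and TBE replicate 1 was closer to each control library, at 0.297, 0.313 and 0.277, than to TBE replicates 2 and 3, at 0.235 and 0.171. Without TBE replicate 1, the mean within groups exceeded that between groups by 0.0785 (p = 0.1 by exact permutation over both tails, the lowest this design allows).

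Of the strongest 3094 peaks in each list, most overlapped regions of the oocyte and of 8-cell embryos in both arms. For TBE replicate 3 these are all its peaks, down to a −log10 p of 3.93, whereas those of control replicate 1 end at 10.8, so that the lists are equal in number and not in strength. They overlapped GV oocyte regions in 98.1%, 85.2% and 78.9% of cases in control and in 89.3%, 79.9% and 64.2% in TBE (exact permutation test, two-sided, p = 0.5). For 8-cell control regions the shares were 97.7%, 91.7% and 84.7% in control and 93.3%, 83.2% and 68.6% in TBE (exact permutation test, two-sided, p = 0.4). Regions of 2-cell embryos, of which there were 677, held 13.9%, 15.4% and 14.7% of the top control peaks and 14.6%, 15.4% and 13.0% of the top TBE peaks. Of the peaks of TBE replicate 3, its weakest included, 52.3% lay in no other top list, against 23.0% to 36.2% in the other 5 libraries.

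Beside the neighbouring stages, the 4-cell stage had the lowest ratio of TBE to control in covered length, but the difference between stages was within the spread of the libraries. The log2 ratio of TBE over control was −1.93 for 4-cell embryos, against −0.22 a stage later and 0.97 a stage earlier. The 4-cell value minus the 8-cell value was −1.71 (exact permutation of labels within each stage, two-sided, p = 0.315), and the 4-cell minus the 2-cell value was −2.90 (exact permutation, p = 0.165). Depth differed at these stages too. The background level was 1.25, 3.82 and 0.348 in 8-cell TBE and 1.32, 0.807 and 0.809 in 8-cell control. Without 8-cell TBE replicate 2 the difference from the 8-cell stage was −0.94. For replicate 1 of both 2-cell arms no level could be solved, and the part of depth was not tested. Regions with 3 control and 0 TBE libraries, and with the reverse, numbered 520 and 0 here, 0.690% and 0% of the merged regions of the stage. The 2-cell lists gave 6 and 69 of 21242 merged regions (0.0282% and 0.325%), while the 8-cell lists gave 38874 and 6425 of 389625 (9.98% and 1.65%). The percent of control regions lacking was 51.7 points higher in 8-cell TBE than in held-out 8-cell control, and those groups did not overlap (p = 0.1 by an exact two-sided permutation, which can give no smaller value). At the 4-cell stage the corresponding groups overlapped.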

How the data were processed

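ATAC-seq peak lists of 3 TBE and 3 control libraries of 4-cell embryos were used, with lists of the other stages for reference. Per the labels and methods, reads were trimmed with Trim Galore and cutadapt 0.4.0, aligned to ARS-UCD1.2 with BWA 0.7.17, freed of duplicate, mitochondrial and low-quality alignments with PicardTools and SAMtools 1.7, and broad peaks were called with MACS2 2.1.1 at q = 0.05. The pooled and subsampled peak sets of the study were not used here, since each deposited list belongs to 1 replicate. For each peak the authors gave the mean ratio of pileup to local background (fold enrichment) from MACS2, and the mean −log10 of its p and q. The deposited score was the −log10 q multiplied by 10 and truncated, in all but 3 of 118870 peaks, and was not used.

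Peaks were merged over libraries where they shared at least 1 bp, and the largest fold enrichment of a library in a region was taken as its value. Background levels were solved from fold enrichment and −log10 p of at least 3 peaks (tolerance 0.0001), and the read totals are not given in the sources used here. Group differences were tested with exact two-sided permutation tests, and single regions with limma 3.58.1 (R 4.3.3) on centred log2 fold enrichment with Benjamini-Hochberg adjustment. Python 3.11.15 with numpy 2.4.6, pandas 2.3.3 and matplotlib 3.10.9 was used, and the functions were tested on simulated data. Within each arm the libraries come from separate collections, and the embryos of each collection were divided between the arms. The main tests took the 6 libraries as unpaired, since the labels do not say that the replicate number names the collection. Their p-values measure only the spread between libraries and leave out any pairing by collection. Regions are not replicates of a condition.

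Named regions were the 5 strongest with 3 control and 0 TBE libraries, the 5 strongest with the reverse pattern (there were none), the 3 strongest shared by all 6, and the 3 most changed in each direction by limma (none passed). The members, lists and tests were chosen with earlier results of these data known. Comparisons by strength, by stage history and at 8-cell regions were added after values had been seen, as were their alternatives. Genic shares, gene lists, motifs and sequences were not analysed here, because the reference at hand is of another build.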

Additional observations from a re-analysis of the deposited data

How the results depend on the processing

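With peaks scaled to the lowest background level, the number of peaks and the covered length of TBE turned to 1.32 and 1.09 times those of control. This scaling acts on means over broad peaks and kept 3.93% to 31.1% of control peaks and 9.93% to 100% of TBE peaks, and whether it cuts deep libraries too far was not tested. The median at shared regions turned to 0.51 (log2) with the pseudocount taken out. Jaccard within minus between groups, 0.0153, turned to −0.0018 with equal top peaks, −0.0133 with scaled peaks and −0.0389 with the length of the shorter list as divisor. Regions with 3 control and 0 TBE libraries, 520, numbered 110 with a −log10 q of at least 3, 55 with equal top peaks and 19 with scaled peaks, and the reverse pattern, 0, numbered 21 and 23 with the latter 2. With equal top peaks, the share of 8-cell regions with 3 control and 0 TBE libraries that had a 4-cell peak turned to 1.5 times as high in TBE as in control, and that of regions with 0 control and 3 TBE libraries to 1.66 times. Relative to regions open in all 6 libraries of the 8-cell stage, these ratios were 1.72 and 1.9. The values for regions with 3 control and 0 TBE libraries rest on 3 to 22 regions per library. Causes of these shifts beyond the shorter lists were not tested.

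Leaving out libraries gave 0.149 to 0.483 for the ratio of peaks, 0.118 to 0.42 for covered length, 16.1 to 46.3 points for regions lacking, −0.27 to −0.06 for the median at shared regions, −0.0281 to 0.0785 for Jaccard, 555 to 3456 and 1 to 72 for the 2 patterns, 0 to 3 for regions called by limma, and −2.86 to −0.40 and −4.23 to −1.61 for the differences in log2 covered length from the 8- and 2-cell stages. Regions lacking could not be held out with 2 control libraries, so that leaving out a control library gave no value there. With a −log10 q or a fold enrichment of at least 3 the difference from the 8-cell stage was −0.88 and −0.77. Fold enrichment of at least 3 and chromosomes 1 to 29 only changed no direction of the 4-cell results they were run for, and an overlap of at least 50% none of the 3 it was run for, regions lacking and the 2 patterns. The limit on fold enrichment was not run with limma.

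Replicate numbers were not shown to pair the samples: deviations of fold enrichment from the group means correlated at 0.352, −0.043 and 0.193 for equal numbers over the 866 shared regions, against −0.307 to 0.139 for different numbers. Not every library correlated best with its own number. With a replicate block limma called 5 regions, all higher in TBE, against 0 without the block. The number of peaks, covered length, regions lacking and the median at shared regions kept their direction with an exact sign-flip p of 0.25, the smallest possible. Jaccard, the 2 patterns and the differences between stages were not run with a block. Genic shares were not run.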

Other observations

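A small group of 115 regions had peaks in 2 TBE libraries and in no control library. TBE replicate 1 was among the 2 in 113 of them, replicate 2 in 62 and replicate 3 in 55. Of these regions 69.6% overlapped 8-cell TBE regions, 43.5% 8-cell control regions and 23.5% GV oocyte regions, against 84.0%, 66.0% and 49.3% for the 4329 regions with at least 2 control and 0 TBE libraries. Their median width was 410 bp. The strongest on a chromosome, chrX:17920020-17920304, was picked after its values were seen and had a fold enrichment of 6.73 in TBE replicate 1 and 7.16 in TBE replicate 3. It had peaks in 13 of 30 libraries.

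Sequences not placed on a chromosome held 2.11%, 2.43% and 2.65% of peaks in control and 2.12%, 7.78% and 5.95% in TBE. Among regions with a peak in all 6 libraries they held 14.5%, against 1.15% among the 520 regions with 3 control and 0 TBE libraries. With equal numbers of top peaks the shares were 5.14%, 8.21% and 8.53% in control and 8.18%, 10.1% and 5.95% in TBE, which overlapped. The X chromosome held 2.44%, 1.85% and 2.33% of control peaks and 2.44%, 2.30% and 2.71% of TBE peaks.

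Peaks found in no other 4-cell library made up 53.1%, 39.4% and 36.3% of the control lists and 47.6%, 16.7% and 27.2% of the TBE lists. The 2 shortest lists thus held the lowest shares of such peaks. In TBE replicate 2, 79.1% of peaks overlapped control replicate 1, and in TBE replicate 3, 67.2%.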
